A study of Mus musculus with 16 samples.

Results

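The 10 genes described here belong to the YAP and TEAD pathway. They are the coactivator genes Yap1 and Wwtr1, of which the second encodes TAZ, the transcription factor genes Tead1 and Tead2, the target genes Ctgf, Cyr61 and Ankrd1, and the regulator genes Lats2, Amotl1 and Amotl2. They were taken by name out of 20325 genes, by a rule that applies no threshold on measured values, although results of these data were known when the names were chosen. All 10 were found in each of the 13 RNA libraries. The cells are OG2 mouse cells, which carry a transgenic reporter of Oct4, on a mixed 129SVJ, C57B6 and CBA background. In 4 libraries, embryonic fibroblasts (MEF, passage 2) had received Klf4, Sox2 and c-Myc (KSM) together with Oct4, c-JunDN, Jdp2 or DR, and RNA was taken on day 3 after the viruses. In 6 libraries, MEF of the same passage overexpressed c-Jun, c-JunDN, Jdp2, Oct4 or DR, or were wild type (WT). In 3 libraries, embryonic stem cells (ESC, passage 5) carried a TetOn c-Jun and had doxycycline for 36 h, carried it with no doxycycline, or were WT. c-Jun is a subunit of the transcription factor AP-1, c-JunDN is its dominant-negative form, and Jdp2 is a repressor that dimerises with Jun proteins. The labels say neither what DR encodes, nor which promoters drive the viral factors, nor how long the MEF libraries had been infected. No label gives doxycycline to WT ESC, so in ESC a drug effect and a c-Jun effect cannot be told apart.

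YAP and TAZ are coactivators that do not bind DNA themselves and act through TEAD proteins, which bind it. The LATS kinases of the Hippo pathway phosphorylate both coactivators and keep them out of the nucleus, and angiomotin-family proteins such as those of Amotl1 and Amotl2 also hold them in the cytoplasm or at cell junctions. Ctgf and Cyr61 encode secreted matricellular proteins and Ankrd1 a nuclear and sarcomeric ankyrin-repeat protein, and all are widely used readouts of YAP activity. Lats2 and Amotl2 are targets as well as restraints, which closes a feedback loop. TEAD and AP-1 sites often lie side by side in enhancers. Transcript levels do not report where YAP and TAZ are in the cell or whether they are phosphorylated.

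RefSeq promoter windows, which run from 250 bases before to 50 bases after a start, were at hand for 8 of the 10 genes, in 10 windows on GRCm38.p6. The windows of Cyr61 (chr3:145649936-145650235, minus strand), Ankrd1 (chr19:36119795-36120094, minus strand) and Amotl2 (chr9:102717554-102717853, plus strand) are shown because these genes gave some of the largest differences below. Capitals mark the TEAD core motif GGAATG, read on the strand of the gene or, as CATTCC, on the other strand.
Cyr61: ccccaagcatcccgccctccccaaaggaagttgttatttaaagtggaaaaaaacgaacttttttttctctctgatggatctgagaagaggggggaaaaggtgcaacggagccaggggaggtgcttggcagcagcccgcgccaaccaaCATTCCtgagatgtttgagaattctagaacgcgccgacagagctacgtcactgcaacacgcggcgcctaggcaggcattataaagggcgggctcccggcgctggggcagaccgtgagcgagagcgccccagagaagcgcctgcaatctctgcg
Ankrd1: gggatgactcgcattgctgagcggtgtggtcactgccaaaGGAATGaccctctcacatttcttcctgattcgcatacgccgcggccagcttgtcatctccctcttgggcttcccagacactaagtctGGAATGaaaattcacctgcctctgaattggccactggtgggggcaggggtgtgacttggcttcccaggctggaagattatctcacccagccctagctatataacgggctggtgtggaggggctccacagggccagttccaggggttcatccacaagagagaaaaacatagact
Amotl2: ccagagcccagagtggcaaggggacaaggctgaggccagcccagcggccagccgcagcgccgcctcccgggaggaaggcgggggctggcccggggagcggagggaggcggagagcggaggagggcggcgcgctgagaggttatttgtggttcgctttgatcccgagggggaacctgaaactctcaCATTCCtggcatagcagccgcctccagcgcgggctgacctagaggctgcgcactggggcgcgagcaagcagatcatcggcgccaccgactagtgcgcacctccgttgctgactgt
The match in Cyr61 began 103 bases before the start and that in Amotl2 65 bases before it, both on the opposite strand. Ankrd1 held 2 matches on its own strand, which began 210 and 123 bases before the start. Of the 8 genes, 6 held GGAATG in either orientation in at least 1 window, the others being Lats2, Yap1 and Wwtr1. Of all 32851 windows of this length, 14.7% held it. That share is per window and the count is per gene. Lats2 and Wwtr1 have 2 windows each, and the second window of Lats2 held no match. The AP-1 motif TGANTCA, searched on both strands, was in no window of the 8 genes and in 7.81% of all windows. An overlap between the motifs could therefore not arise. A match describes letters only, and the absence of one describes this window only.

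Levels are given as CPM, expected counts scaled to library size with TMM factors, a unit that compares libraries but not genes of different length. Levels of different genes are compared only on the per-length scale of the authors (TPM). Genes that reached 5 CPM in either library of a pair count as measured, and a difference of 2-fold or more counts as higher or lower. A gene below 5 CPM in 1 library of a pair is measured through the other alone, so its direction was fixed by the filter. Differences are log2 ratios of CPM plus 1, and fold values carry an exact 95% interval that covers counting error only. Since each group is 1 library, no p-value can be had, and every difference is one between 2 libraries. Beside the number of pathway genes past 2-fold stands the share of all measured genes past it in that direction.

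Expected counts per library summed to between 1839198 and 3440917, except for WT ESC (12173100) and WT MEF (21415021), so that 3 counts were worth 0.835 to 1.60 CPM outside the WT libraries. The gene of each introduced factor was higher in its own library than in the matched control, by 94.9-fold for Jun in induced ESC, by 44.8-fold to 4021-fold in MEF and by 5.26-fold to 422-fold in KSM cells. Every ESC library held pluripotency markers, with a sum over 8 genes of 1236 CPM with doxycycline, 6514 CPM without it and 5123 CPM in WT ESC. Fibroblast markers, again 8 genes, summed to between 14258 and 54410.4 CPM in the 6 MEF libraries and to between 1155 and 1906 CPM in the 4 KSM libraries. The MEF Oct4 library was quantified on another annotation and is compared on 19679 shared gene names, so its differences also contain a difference in gene models, and its levels are relative to the shared genes alone.

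The genes differed in how far their levels varied. Yap1, the main coactivator gene, stood at 166, 154, 154 and 160.1 CPM in KSM cells with Oct4, c-JunDN, Jdp2 and DR. In MEF it stood at 255, 227, 205, 270.5, 262 and 445 CPM with c-Jun, c-JunDN, Jdp2, Oct4 and DR and in WT cells. In ESC it stood at 191 CPM with and 196 CPM without doxycycline and at 217 CPM in WT cells. WT MEF was therefore the one library apart, and the highest and lowest level differed 1.08-fold within KSM cells, 2.17-fold within MEF and 1.13-fold within ESC. Ctgf, by contrast, stood at 3.06, 9.43, 18.9 and 7.73 CPM in KSM cells with Oct4, c-JunDN, Jdp2 and DR. It stood at 242, 478, 301, 1532, 206 and 1562 CPM in MEF with c-Jun, c-JunDN, Jdp2, Oct4 and DR and in WT MEF, and at 108, 31.6 and 203 CPM in ESC with and without doxycycline and in WT ESC. All 4 KSM values of Ctgf lay below every other library, a separation whose share among all genes was not computed. MEF with DR, the lowest MEF value, and WT ESC, the highest ESC value, were neighbours whose counting interval included no difference. Of the 8 comparisons of a factor with its matched control, Ctgf passed 2-fold in 5, Ankrd1, Cyr61 and Amotl2 in 3 each, and Yap1 and Tead1 in none. Ankrd1 was measured in only 5 of these comparisons.

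**Figure D1:**
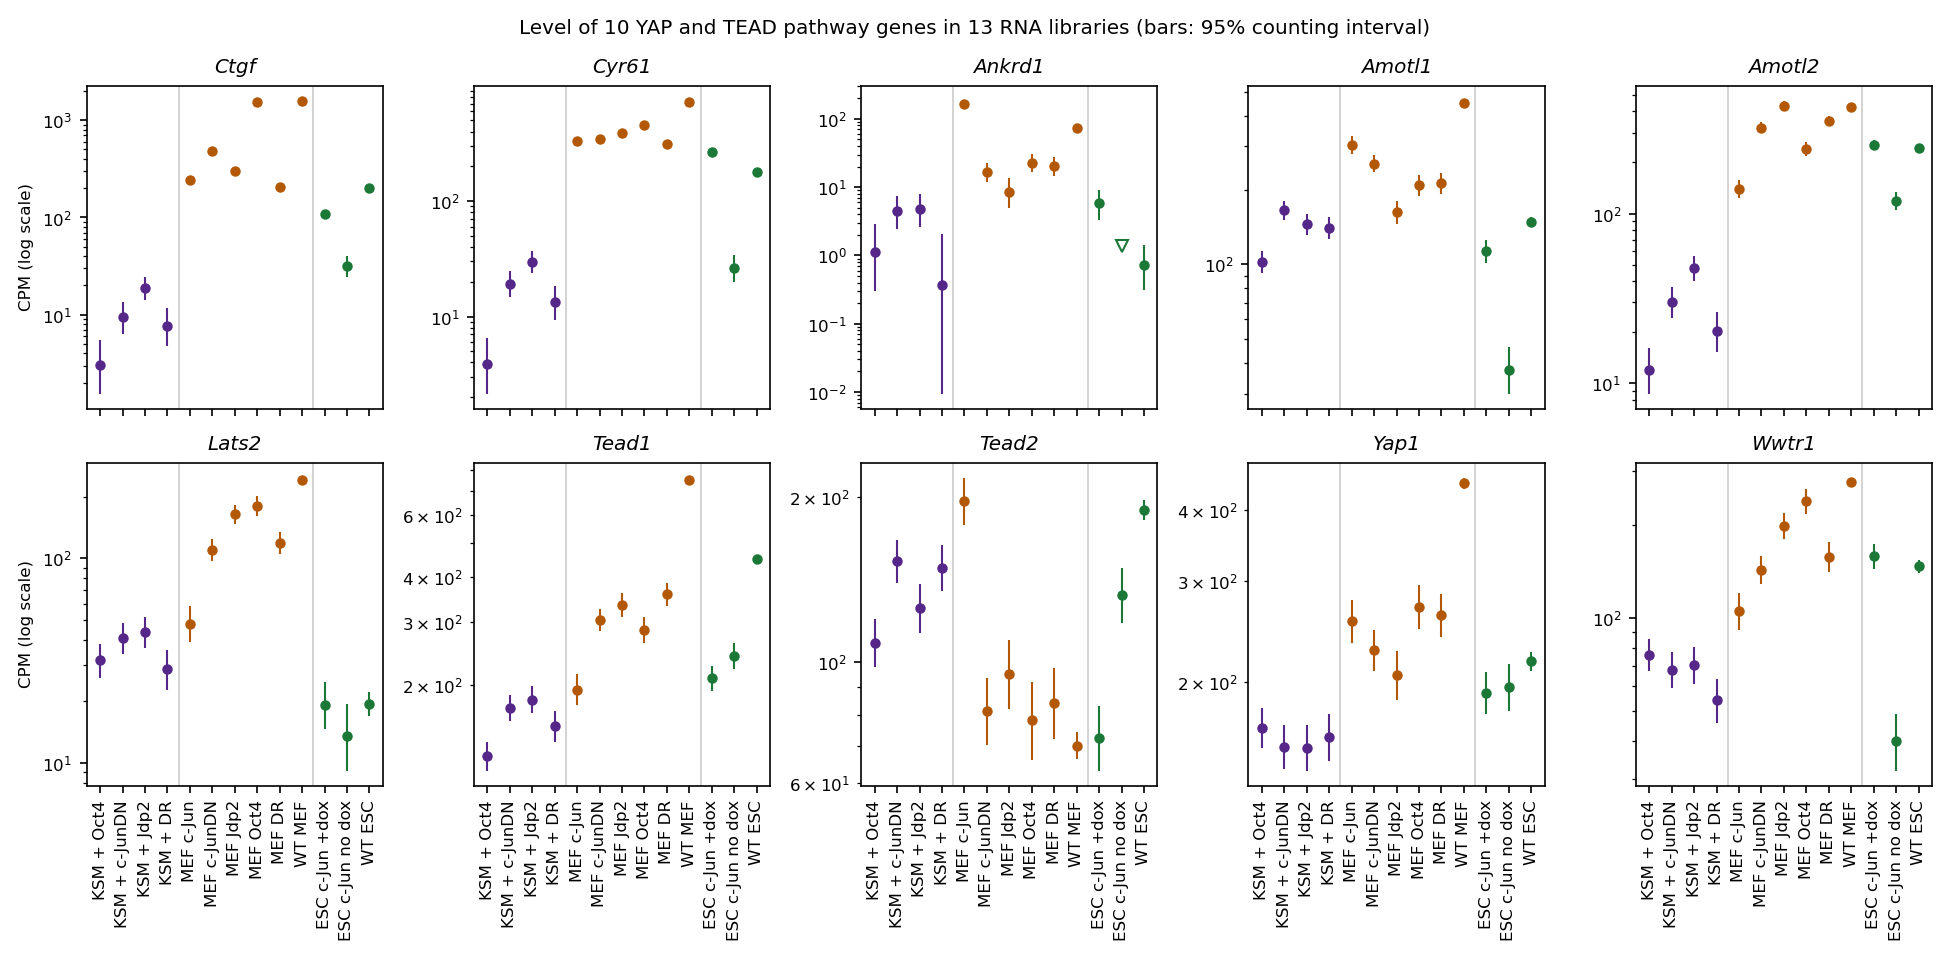
Level of each of the 10 genes (vertical axis, CPM on a log scale) in the 13 RNA libraries, in the order KSM, MEF and ESC. Points are single libraries, bars are 95% counting intervals, and the open triangle is the level of 3 counts where Ankrd1 had 0 counts. Ctgf and Amotl2 are lowest in KSM cells, the Cyr61 level of ESC without doxycycline lies within the KSM range, and Yap1 stays between 154 and 270.5 CPM in 12 of the 13 libraries.

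On the per-length scale the pathway differed in make-up between the cell states. Tead2 gave 62.4% to 70.6% of the summed Tead1 to Tead4 TPM in the KSM libraries, against 24.6% in WT MEF and 35.7% in MEF with DR. In WT MEF the largest share was that of Tead1, at 57.7%. MEF with c-Jun stood apart from the other MEF, with Tead2 at 72.5% and Tead1 at 15.7%. Tead2 gave 43.2% with doxycycline, 66.8% without it and 57.3% in WT ESC. Yap1 exceeded Wwtr1 in every library. The ratio of their TPM was 1.38 with doxycycline, against 5.64 without it and 1.70 in WT ESC, and it was 3.38 in KSM cells with DR. The 3 secreted or nuclear target genes together reached 419 TPM in induced ESC, against 47.3 TPM in the uninduced line and 342 TPM in WT ESC. They reached 7.61 to 55.5 TPM in KSM cells and 557 to 2251 TPM in MEF.

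**Figure D2:**
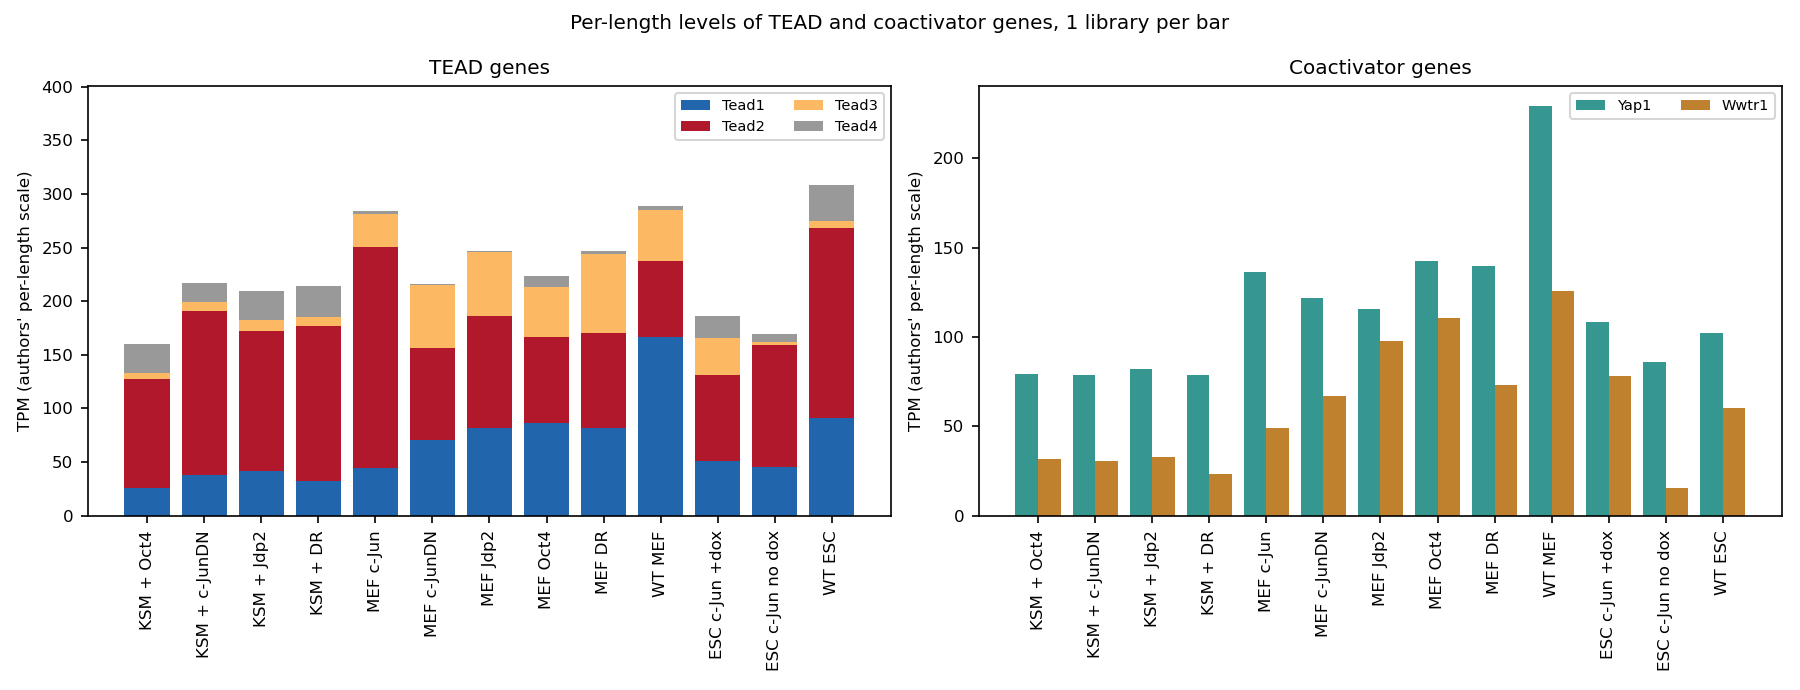
TPM of the TEAD genes (left, stacked) and of Yap1 and Wwtr1 (right) in each of the 13 libraries, 1 library per bar. Tead2 makes up 72.5% of the TEAD sum in MEF with c-Jun and 24.6% in WT MEF, and Wwtr1 is lowest in ESC without doxycycline, at 15.2 TPM.

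The ESC line put the question of what c-Jun changes in pluripotent cells. Of the 10 pathway genes, 6 were at least 2-fold higher with doxycycline than without it and none was lower, where 21.5% of all 11133 measured genes were higher and 18.9% lower. The higher ones were the target genes Cyr61, Ankrd1 and Ctgf, the angiomotin-like genes Amotl1 and Amotl2, and Wwtr1. The median over the 10 genes was 1.33 on the log2 scale, and over all measured genes it was -0.07.

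Cyr61 stood at 264 CPM with and 26.2 CPM without doxycycline, and at 179.9 CPM in WT ESC. That is a 10.1-fold difference (7.70 to 13.4) between the induced and the uninduced line, and 3.49% of measured genes differed more in that direction. Ctgf was 3.42-fold higher (2.63 to 4.49) with doxycycline, but WT ESC, at 203 CPM, exceeded the induced line. Ankrd1 had 17 counts with doxycycline, 0 without it and 8 in the deeper WT library, which is 5.76, 0 and 0.713 CPM. Against a floor of 3 counts per library the first of these was at least 4.25-fold above the second. Ankrd1 was measured through the induced library alone and so had to be higher to be counted.

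Among the regulators, Amotl2 stood at 253 CPM with and 118 CPM without doxycycline, against 243 CPM in WT ESC. Amotl1 stood at 113 and 37.5 CPM in the same pair, against 149 CPM in WT ESC. The uninduced line was thus the low one for both, and the folds were 2.14 (1.86 to 2.47) for Amotl2 and 3.01 (2.36 to 3.88) for Amotl1. Lats2, the kinase gene, was low in all ESC, with 19.3 CPM with and 13.6 CPM without doxycycline and 19.4 CPM in WT ESC. Wwtr1 was 3.99-fold higher (3.17 to 5.07), at 159 CPM with and 39.8 CPM without doxycycline and 147 CPM in WT ESC. Yap1 was nearly level. Tead2 stood at 72.5 CPM with and 132 CPM without doxycycline and at 189.7 CPM in WT ESC, and its log2 difference of -0.86 in the matched pair did not pass 2-fold.

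Against WT ESC, induced cells gave 1 of 10 genes higher, Ankrd1 by 8.08-fold (3.31 to 21.6), with 14.6% of all genes higher. They gave 2 lower, Tead1 and Tead2, at -1.11 and -1.37, with 22.6% of all genes lower. Tead1 stood at 208 CPM in the induced line against 451 CPM in WT ESC, and it did not pass 2-fold under any of the other 3 scalings (-0.92 to -0.83). Ankrd1 was therefore the gene past 2-fold, in the same direction, against both the uninduced line and WT ESC, as were 11.6% of all genes. In both pairs it was measured through the induced library alone, so its direction was fixed by the filter. The uninduced line itself lay below WT ESC for 5 of 9 measured pathway genes and above it for none, where 18.3% of all genes were lower and 6.17% higher. These were Cyr61 (-2.73), Ctgf (-2.65), Amotl1 (-1.96), Wwtr1 (-1.86) and Amotl2 (-1.03, or -0.98 with total counts). This comparison shares the uninduced library with the one on induction.

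Markers of other cells moved in the same pairs. Of 4 measured fibroblast markers, 2 were higher with doxycycline and none lower, with sums over the list of 503 CPM with and 24.4 CPM without doxycycline and 1258 CPM in WT ESC. Of the 503 CPM, Col1a1 gave 471 CPM, and the fibroblast markers Lum and Dcn were at 0 and 0.339 CPM. In WT ESC, Col1a1, Col1a2 and Col3a1 were at 441, 357 and 363 CPM, against 6.33, 8.13 and 2.26 CPM in the uninduced line. Contractile markers were higher in 4 of 5 and lower in 1, with sums of 1231, 161 and 101 CPM, and epithelial markers were higher in 3 of 4, with sums of 4065, 551 and 979 CPM. Keratinocyte markers had the largest ratio of sums, with 529 CPM with and 19.9 CPM without doxycycline and 34.9 CPM in WT ESC, and both measured ones were higher, Sfn and Krt6a, of which Krt6a had 281 counts against 0. Macrophage markers summed to 111, 11.3 and 25.7 CPM, and both measured ones were higher, Cd68 and Csf1r, of which Csf1r had 220 counts against 0, while Lyz2, Ptprc, Emr1 and C1qc were at 0 with doxycycline. Acta2, Cnn1, Krt6a and Csf1r lay below 5 CPM without doxycycline and so could not be counted as lower. Myl9, the lower contractile marker, lay below 5 CPM with doxycycline and could not be counted as higher. All 8 pluripotency markers were lower with doxycycline than without it. The part of these markers in the differences of the pathway genes was not tested. In such bulk samples, fewer cells of a type and less RNA per cell cannot be told apart.

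**Figure D3:**
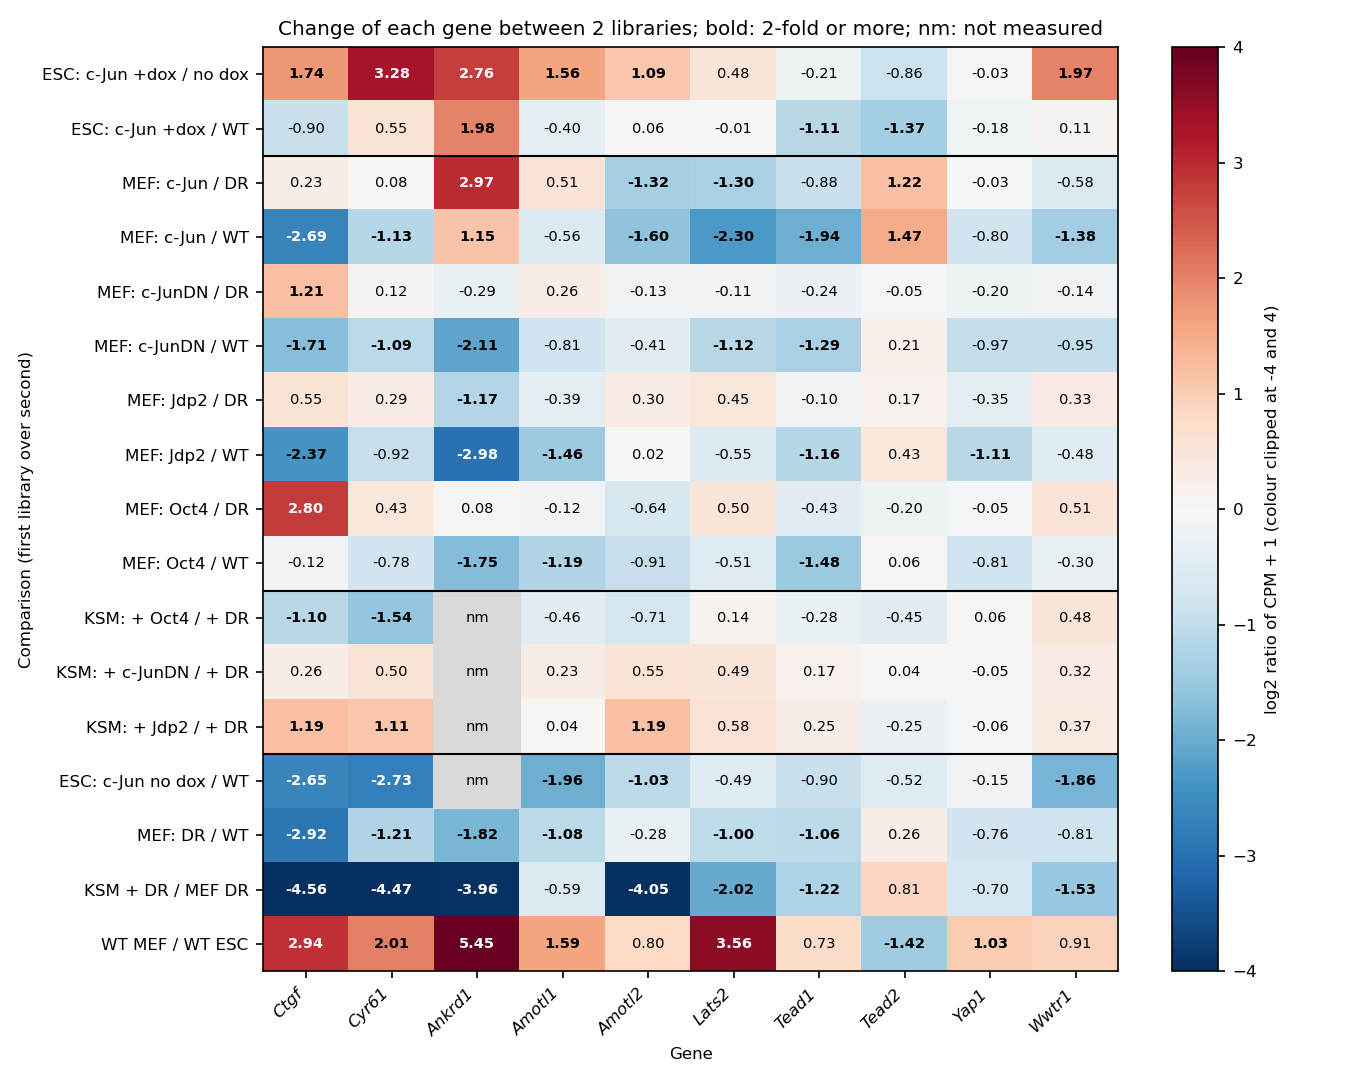
Log2 ratio of CPM plus 1 for each gene (columns) in each comparison (rows, first library over second). Bold values passed 2-fold and nm marks a gene that was not measured. Ctgf, Cyr61, Ankrd1 and Amotl2 are red for induced over uninduced ESC and deep blue for KSM with DR over MEF with DR, whereas Yap1 passes 2-fold in 2 rows, WT MEF over WT ESC and Jdp2 over WT MEF.

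The 2 WT cell types differed in most of the pathway. WT MEF were higher than WT ESC in 6 of 10 genes, where 24.3% of all genes were higher, and lower in 1, where 29.4% were lower. Ankrd1 was 104-fold higher (52.6 to 241), at 74.1 CPM in WT MEF against 0.713 CPM in WT ESC, and Lats2 12.4-fold higher (10.8 to 14.3), at 240.4 against 19.4 CPM. Ankrd1 was measured through WT MEF alone and so had to be higher to be counted. Ctgf was 7.69-fold higher, Cyr61 4.05-fold, Amotl1 3.02-fold and Yap1 2.05-fold, of which Yap1 was within 2-fold with total counts (0.76). Tead2 was the lower one, at 70.3 CPM in WT MEF and 189.7 CPM in WT ESC (-1.42). The 3 other genes, Tead1, Amotl2 and Wwtr1, had log2 differences of 0.73 to 0.91.

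The control library with DR stood far from WT MEF in the same genes. DR was lower in 6 of 10 genes and higher in none, where 10.4% of all genes were lower and 9.56% higher. Ctgf led, at 206 CPM with DR against 1562 CPM in WT MEF, a log2 difference of -2.92, and 0.228% of measured genes differed more in that direction. Ankrd1 (-1.82), Cyr61 (-1.21), Amotl1 (-1.08) and Tead1 (-1.06) followed, and Lats2 was just past the threshold, with WT MEF 2.01-fold above DR. With counts scaled by their totals in place of TMM, Ctgf and Ankrd1 alone stayed past 2-fold, and the median of all genes was then 0.26 on the log2 scale, against -0.11 with TMM. Fibroblast markers summed to 31367 CPM with DR and 54410.4 CPM in WT MEF and contractile markers to 6525 and 12858 CPM, with 2 of 8 fibroblast markers lower and 2 higher, and 2 of 6 contractile markers lower and none higher. The part of these markers was not tested, and DR, infection and depth cannot be told apart. Each factor in MEF is therefore given against both controls below, and the 4 comparisons with DR share that library, as the 4 with WT MEF share theirs.

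In the MEF cultures the factors were given alone, without Klf4, Sox2 and c-Myc. With c-Jun, the target gene Ankrd1 and Tead2 were higher and the restraining genes Amotl2 and Lats2 lower against both controls. Of 10 genes, 2 were higher and 2 lower than with DR, where 7.75% and 9.54% of all genes were. Against WT MEF, 2 were higher and 6 lower, with 11.0% and 13.7% of all genes. The calls that held against both controls covered 4.69% of all genes in the higher and 4.89% in the lower direction.

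Ankrd1 reached 166 CPM with c-Jun, against 20.3 CPM with DR and 74.1 CPM in WT MEF, which was its highest level in any library. It was 8.17-fold (5.91 to 11.5) above DR, and 1.25% of measured genes differed more in that direction. The other 2 target genes did not follow. Ctgf was at 242 CPM with c-Jun, against 206 CPM with DR and 1562 CPM in WT MEF, and Cyr61 was at 331 CPM, against 314 and 728 CPM. Both were close to DR (log2 0.23 and 0.08) and past 2-fold below WT MEF. Tead2 stood at 197 CPM with c-Jun, 84.1 CPM with DR and 70.3 CPM in WT MEF, a 2.34-fold difference from DR (1.95 to 2.81). The c-Jun value was the highest of the 13 libraries, next to WT ESC, and the WT MEF value the lowest, next to induced ESC, and the counting intervals of both neighbouring pairs included no difference.

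Amotl2 stood at 140.0 CPM with c-Jun, against 351 CPM with DR and 425 CPM in WT MEF, and was the lowest of all MEF libraries. Lats2 likewise stood at 48.0 CPM, against 119 and 240.4 CPM. DR exceeded c-Jun 2.51-fold (2.18 to 2.89) for Amotl2 and 2.49-fold (1.96 to 3.19) for Lats2. Tead1 and Wwtr1 had log2 differences of -0.88 and -0.58 from DR, both within 2-fold, and passed it against WT MEF at -1.94 and -1.38, of which Wwtr1 was at -0.97 with total counts. All 6 contractile markers were lower with c-Jun, with sums of 1689 CPM with c-Jun and 6525 CPM with DR. Fibroblast markers were lower in 5 of 8 (14258 and 31367 CPM), while Lum, the lowest of them, was still at 16.0 CPM. The part of either list in the 4 calls was not tested.

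With c-JunDN, 1 of 10 genes was higher than with DR and none lower, where 3.25% of all genes were higher and 2.71% lower. That gene was Ctgf, at 478 CPM with c-JunDN and 206 CPM with DR, a 2.33-fold difference whose interval began at 2.08, and 2.14% of measured genes differed more in that direction. WT MEF held 1562 CPM, so Ctgf with c-JunDN lay between the controls. The 9 other genes lay within 0.30 of DR on the log2 scale. Against WT MEF, 5 genes were lower and none higher, with 10.9% and 10.6% of all genes. Fibroblast markers summed to 31333 CPM with c-JunDN and 31367 CPM with DR, with 1 of 8 higher and none lower, and no contractile marker passed 2-fold. Macrophage markers summed to 157 CPM with c-JunDN and 77.9 CPM with DR, with 2 of 5 measured higher and none lower. Of the measured ones, all but Lyz2 lay below 5 CPM with DR and so could not be counted as lower. The part of these markers in the Ctgf difference was not tested.

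With Jdp2, 1 of 10 genes was lower than with DR and none higher, where 6.32% of all genes were lower and 5.81% higher. Ankrd1 stood at 8.49 CPM with Jdp2, from 17 counts, against 20.3 CPM with DR and 74.1 CPM in WT MEF. It was past 2-fold below both controls, as were 3.90% of all genes, and DR exceeded Jdp2 2.39-fold (1.33 to 4.48). With a pseudocount of 5 the difference from DR was -0.91. Against WT MEF, 5 genes were lower and none higher, with 14.5% and 11.9% of all genes, among them Ctgf (-2.37) and Yap1 (-1.11). Amotl2 had its highest level of all libraries with Jdp2, at 432 CPM, beside 351 CPM with DR and 425 CPM in WT MEF, the last of which it did not exceed beyond counting error. Contractile markers were lower in 4 of 6, with sums of 3834 CPM with Jdp2 and 6525 CPM with DR, and macrophage markers summed to 31.0 and 77.9 CPM, with the 1 measured lower. Their part in the Ankrd1 difference was not tested.

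With Oct4, Ctgf was the gene past 2-fold against DR. On the shared gene names it stood at 1532 CPM with Oct4, 219 CPM with DR and 1669 CPM in WT MEF. Oct4 exceeded DR 6.98-fold (6.31 to 7.75), 2.33% of measured genes differed more in that direction, and the log2 difference from WT MEF was -0.12. Of 10 genes, 1 was higher and none lower than with DR, where 11.6% and 10.3% of all genes were. Against WT MEF, 3 were lower, namely Ankrd1 (-1.75), Tead1 (-1.48) and Amotl1 (-1.19), and none higher, with 14.8% and 14.6% of all genes. Cyr61, which encodes a close relative of the Ctgf protein, stood at 453 CPM with Oct4, 335 CPM with DR and 778 CPM in WT MEF, and did not pass 2-fold in either comparison. Fibroblast markers were lower than with DR in 5 of 8 and higher in 2, with sums of 16921 and 31367 CPM, and all 6 macrophage markers were higher, with sums of 262 CPM and 77.9 CPM. These DR sums are relative to all genes. Csf1r, Ptprc, Emr1 and C1qc lay below 5 CPM with DR and so could not be counted as lower. Contractile markers were lower in 2 of 6 and higher in 1. Both measured endothelial markers, Kdr and Tek, were higher, and they too lay below 5 CPM with DR. The part of these markers and of the gene models in the Ctgf difference was not tested.

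KSM cells with DR held far less of the target genes than MEF with DR. They were lower in 7 of 10 genes and higher in none, where 20.1% of all genes were lower and 18.1% higher. The median over the 10 genes was -1.77 on the log2 scale, and over all measured genes it was 0.04. Ctgf was at 7.73 CPM in KSM cells against 206 CPM in MEF, Cyr61 at 13.3 against 314 CPM, and Amotl2 at 20.2 against 351 CPM. The ranges of the 4 KSM and the 6 MEF libraries did not overlap for any of the 3. The share of all genes without overlap was not computed, and the libraries of a state carry different factors, so they are not replicates. MEF exceeded KSM cells 26.6-fold (17.2 to 43.4) for Ctgf, 23.7-fold (16.9 to 34.1) for Cyr61 and 17.3-fold (13.2 to 23.2) for Amotl2. Ankrd1 had 1 count in KSM cells and 42 in MEF, and the MEF level was 55.2-fold higher, with a wide interval from 9.38. It lay below 5 CPM in KSM cells and so could not be counted as higher there.

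The other genes differed less. Lats2 stood at 28.7 CPM in KSM cells against 119 CPM in MEF with DR (-2.02), Wwtr1 at 54.1 against 158 CPM (-1.53) and Tead1 at 153 against 359 CPM (-1.22). Amotl1, Yap1 and Tead2 did not pass 2-fold, with log2 differences of -0.59, -0.70 and 0.81. Tead2 was thus higher in KSM cells, at 149 CPM against 84.1 CPM, within the threshold. All 8 fibroblast and all 6 contractile markers were lower in KSM cells, with sums of 1155 against 31367 CPM and of 232 against 6525 CPM, and all 4 epithelial markers and all 3 measured keratinocyte markers were higher (576 against 5.32 CPM and 127 against 2.42 CPM). Each of these epithelial and keratinocyte markers lay below 5 CPM in MEF with DR and so could not be counted as lower. Likewise, Myl9, Cnn1 and Actg2 lay below 5 CPM in KSM cells and could not be counted as higher. None of the fibroblast markers was at 0 in KSM cells. Their part in the differences of the pathway genes was not tested, and the 3 added factors, day and culture cannot be told apart.

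**Figure D4:**
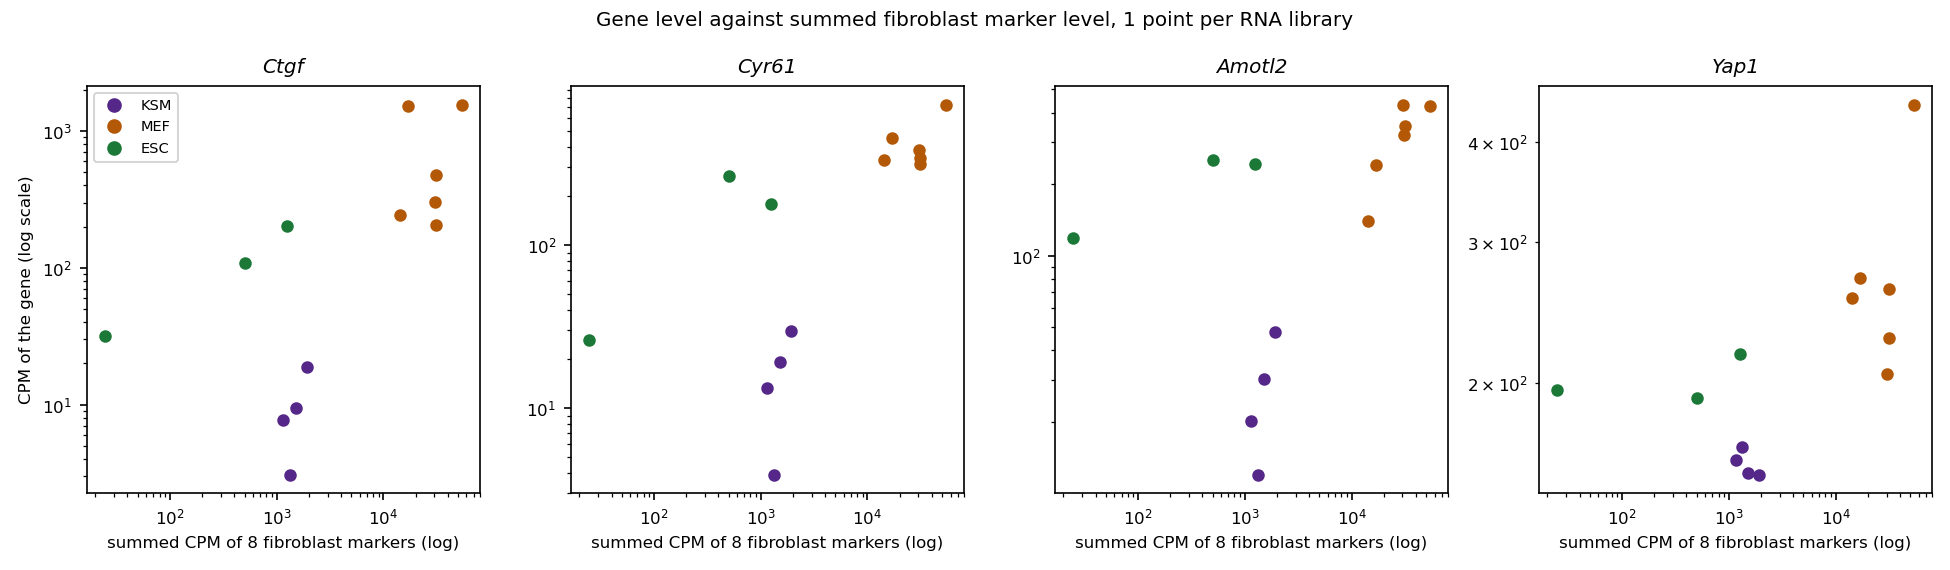
Level of Ctgf, Cyr61, Amotl2 and Yap1 (vertical axes, CPM on log scales) against the summed CPM of 8 fibroblast markers (log), 1 point per library, coloured by cell state. KSM libraries lie between 1155 and 1906 CPM on the horizontal axis and are lowest for Ctgf and Amotl2, while WT ESC, at 1258 CPM of these markers, has 203 CPM of Ctgf.

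On day 3 of reprogramming the question was how c-JunDN and Jdp2 act in the place of Oct4. Against KSM with DR, Oct4 gave 2 of 9 measured pathway genes lower and none higher, c-JunDN gave none in either direction, and Jdp2 gave 3 higher and none lower. The shares of all genes were 6.67% lower and 4.65% higher with Oct4, 1.62% lower and 1.81% higher with c-JunDN, and 1.31% lower and 2.68% higher with Jdp2. Ctgf and Cyr61, the 2 lower with Oct4, lay below 5 CPM with it and so could not be counted as higher. The 3 comparisons share the library with DR. Ankrd1 was not measured in any of them, with 1.11, 4.40, 4.73 and 0.368 CPM with Oct4, c-JunDN, Jdp2 and DR.

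The target genes Ctgf and Cyr61 were at either end of their KSM range with Oct4 and Jdp2. Ctgf stood at 3.06 CPM with Oct4, 9.43 CPM with c-JunDN and 18.9 CPM with Jdp2, against 7.73 CPM with DR, from 11, 30, 56 and 21 counts. Cyr61 stood at 3.90, 19.2 and 29.7 CPM with the same factors, against 13.3 CPM with DR. Jdp2 exceeded DR 2.45-fold (1.46 to 4.25) for Ctgf and 2.24-fold (1.51 to 3.40) for Cyr61, whereas DR exceeded Oct4 2.53-fold (1.16 to 5.80) for Ctgf and 3.40-fold (1.79 to 6.83) for Cyr61. Amotl2 kept the same order, with 12.0, 30.2 and 47.6 CPM against 20.2 CPM with DR. It passed 2-fold with Jdp2, at 2.35-fold (1.71 to 3.27), but not with Oct4 (-0.71). With Jdp2, 1.73% of measured genes differed more than Amotl2 in that direction. With a pseudocount of 5 the Ctgf differences were -0.66 with Oct4 and 0.91 with Jdp2, and that of Cyr61 with Jdp2 was 0.93, all within 2-fold. All 4 KSM values of these 3 genes were still below every MEF value, for which no share of all genes was computed.

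The remaining genes lay within 2-fold of KSM with DR for all 3 factors. Amotl1 stood at 102, 166 and 145 CPM with Oct4, c-JunDN and Jdp2, against 141 CPM with DR. Wwtr1 stood at 76.0, 67.9 and 70.2 CPM, against 54.1 CPM, and Lats2 at 31.7, 40.8 and 43.5 CPM, against 28.7 CPM, so DR was lowest for both. Tead1 stood at 126, 173 and 182 CPM, against 153 CPM, and Tead2 at 108, 153 and 125 CPM, against 149 CPM, so Oct4 was lowest for both. Fibroblast markers summed to 1326, 1506 and 1906 CPM with Oct4, c-JunDN and Jdp2, against 1155 CPM with DR, and contractile markers to 171, 316 and 384 CPM, against 232 CPM. Oct4 gave 2 of 8 fibroblast and 1 of 3 measured contractile markers lower, c-JunDN gave 3 of 8 and 1 of 3 higher, and Jdp2 gave 1 of 8 and 2 of 4 higher, with none the other way. Epithelial markers summed to 104, 248 and 488 CPM with Oct4, c-JunDN and Jdp2, against 576 CPM with DR, and 2 of 4 were lower with Oct4, 1 of 4 lower with c-JunDN and 1 of 4 higher with Jdp2. Keratinocyte markers summed to 17.8, 43.0 and 86.4 CPM, against 127 CPM, with 3 of 3 measured lower with Oct4, 3 of 3 lower with c-JunDN, and 1 of 4 higher and 1 lower with Jdp2. Krt14 and Krt6a with Oct4, and Krt6a with c-JunDN, lay below 5 CPM and so could not be counted as higher. Krt5, the higher one with Jdp2, lay below 5 CPM with DR and so could not be counted as lower. The epithelial and keratinocyte sums were thus lowest with Oct4, as were Ctgf and Cyr61, but highest with DR and not with Jdp2. The contractile sums rose from Oct4 through DR and c-JunDN to Jdp2, the order of Ctgf, Cyr61 and Amotl2. The fibroblast sums were lowest with DR and highest with Jdp2. The part of these markers was not tested.

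The wider pathway was read through 3 lists. The first holds 24 upstream and core Hippo genes, from the cadherins Fat1, Fat4 and Dchs1 to the kinases Stk3, Stk4 and Lats1. The second holds the other TEAD genes and the Vgll cofactor genes, 6 in all, and the third 17 further genes of published YAP target signatures. With against without doxycycline in ESC, 21.5% of all genes were higher and 18.9% lower. Of 23 measured Hippo genes, 7 were higher and 1 lower (median 0.53), so the higher count was not far from that share. They were led by the FERM-domain gene Frmd6 (4.06), Dchs1 (3.11), the angiomotin gene Amot (2.91) and the LIM-domain gene Limd1 (1.86). All 4 measured TEAD and Vgll genes were higher, namely Vgll3 (2.93), Tead3 (2.89), Vgll4 (1.59) and Tead4 (1.01). Of 15 measured signature genes, 11 were higher and 2 lower (median 1.82), led by the receptor tyrosine kinase gene Axl (5.99), Ccdc80 (3.51), Crim1 (2.70) and Myof (2.61). Dchs1, Axl, Ccdc80, Vgll3, Vgll4 and Tead3 lay below 5 CPM without doxycycline and so could be counted only if they were higher with it. Axl stood at 264 CPM with and 3.16 CPM without doxycycline, against 12.1 CPM in WT ESC. Against WT ESC, 8 of 14 measured signature genes were higher and none lower, where 14.6% of all genes were higher and 22.6% lower.

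In MEF with c-Jun, more of the listed genes were lower than higher against DR, where 9.54% of all genes were lower and 7.75% higher. There, 4 of 24 Hippo genes were lower and none higher, namely Amot (-1.86), Fat1 (-1.81), Fat4 (-1.81) and Ptpn14 (-1.01). The other 20 passed 2-fold in neither direction, and the median of that list was 0.03. Fat1 stood at 259 CPM with c-Jun, 914 CPM with DR and 1870 CPM in WT MEF. Of 16 signature genes, 5 were lower and 2 higher (median -0.62), with Crim1 (-1.63) and F3 (-1.55) lower and Fjx1 (2.44) and Dock5 (1.37) higher. Tead3 was lower, at 33.5 CPM with c-Jun against 83.7 CPM with DR. With c-JunDN, where 3.25% of all genes were higher and 2.71% lower, 1 of 24 Hippo genes, Wwc1 (-1.06), passed 2-fold, as did 3 of 16 signature genes, Fjx1 (2.05), Ccdc80 (1.37) and F3 (-1.03). With Jdp2, where 6.32% of all genes were lower and 5.81% higher, Amot (-1.63) was the 1 of 24 Hippo genes past 2-fold, and 4 of 16 signature genes were lower and 1 higher, led by F3, the tissue factor gene (-3.73), from 40 counts with Jdp2 against 572 with DR. With Oct4, 3 of 24 Hippo genes, Stk4 (1.28), Wwc1 (1.26) and Mob1a (1.21), were higher, about the 11.6% of all genes that were. Beside 10.3% of all genes lower, of 16 signature genes 4 were lower, F3 (-3.73) first, and 2 higher, Dock5 (1.94) first. Tead4 was higher (1.91) and Tead3 lower (-1.14), but Tead4 lay below 5 CPM with DR and so could not be counted as lower.

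Between KSM cells with DR and MEF with DR, where 20.1% of all genes were lower and 18.1% higher, the lists differed. Of 24 Hippo genes, 6 were lower and 2 higher, the lower count being near the share of all genes, with Fat4 (-4.53), Dchs1 (-3.52) and Wwc2 (-2.40) lower and Wwc1 (2.49) higher. Of 17 signature genes, 10 were lower and 3 higher, led by F3 (-4.82), Rbms3 (-3.84) and Igfbp3 (-3.75). Tead4 was higher, at 43.4 CPM in KSM cells and 2.90 CPM in MEF, and Vgll3 lower, at 9.20 against 145 CPM. Tead4 lay below 5 CPM in MEF with DR and so could not be counted as lower. Within KSM cells, Oct4 gave 6 of 17 signature genes lower and 2 higher than DR, beside 6.67% and 4.65% of all genes. Foxf2 (-2.62), F3 (-1.88) and Myof (-1.67) were among the lower ones. The ecto-nucleotidase gene Nt5e was the most different of all, at 285 CPM with Oct4 and 5.89 CPM with DR (5.37). Of 24 Hippo genes, Dchs1 (-1.28), Frmd6 (-1.27) and Amot (-1.12) were lower with Oct4, and none was higher. With Jdp2 the Hippo gene past 2-fold was Dchs1 (1.12) and the signature gene Foxf2 (-1.75), beside 2.68% of all genes higher and 1.31% lower. With c-JunDN it was the signature gene Nt5e (1.01), beside 1.81% of all genes higher and 1.62% lower. With Jdp2, where Ctgf, Cyr61 and Amotl2 were higher, none of the 17 signature genes passed 2-fold upwards, which is near the 2.68% of all genes that did.

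The genes whose levels followed Ctgf most closely were found by Pearson's r of log2 CPM plus 1 over the 13 libraries, among 12370 genes. They were Wwc2 (0.97), a Hippo regulator gene, Snx30 (0.96), Rbms2 (0.96), Cyr61 (0.96) and Pla2g15 (0.96). Of the other pathway genes, Amotl2 ranked 39 (0.91), Wwtr1 173 (0.85) and Yap1 255 (0.83). Tead2 ranked 9476, with an r of -0.49. The libraries fall into 3 cell states and share annotation and, in part, controls. The r values mix steps between states with differences within a state, and these parts were not separated. Wwc2 stood at 35.1 to 41.9 CPM in KSM cells with Oct4, c-JunDN or Jdp2, against 32.9 CPM with DR, and at 302 CPM in MEF with Oct4 against 175 CPM with DR. Its highest level, 382 CPM, was in WT MEF, as for Ctgf.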

How the data were processed

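Trizol extraction and TruSeq preparation gave 13 RNA libraries, per the labels' protocols. The authors made expected counts per gene, and the submitters' processing notes name RSEM 1.1.21, Bowtie2 2.2.3, bcl2fastq 2.15.0.4 and the build mm9. They were rounded here. The deposited fraction of transcripts per gene of 12 libraries, and the deposited TPM of the MEF Oct4 library, served as the per-length scale, the fraction being multiplied to the TPM scale. Strand is not given in the sources used here. For the Oct4 library, Ensembl IDs were matched to 19679 of 20325 names, 1715 through a synonym, which held 96.98% of its expected counts. Counts were scaled by TMM (edgeR 4.0.16, R 4.3.3), and the ratio rule was tested on simulated data. Depth, thresholds and intervals stand in the report. PCR copies are not independent molecules, so intervals cover counting error only.

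No group has a second library, so no test across replicates was made. Named genes are the 10 pathway genes, up to 4 genes past 2-fold per list and comparison with the largest change, and the 5 genes most like Ctgf. The pathway genes and the lists were chosen with earlier results of these data known. Alternatives were total counts, DESeq2 1.42.0 size factors, the TPM scale, other filters, pseudocounts and thresholds, and matching by symbol alone. Promoter windows come from RefSeq on GRCm38.p6. The chromatin immunoprecipitation samples were not used here.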

Additional observations from a re-analysis of the deposited data

Results flagged for a closer look

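The same factor went opposite ways in 2 cell states for 2 of the pathway genes, and neither difference was tested. Amotl2 was higher with c-Jun in ESC (log2 1.09 against the uninduced line) and lower with c-Jun in MEF (-1.32 against DR), a gap of 2.41 on the log2 scale. Against the WT controls the values were 0.06 in ESC and -1.60 in MEF, so the higher value in ESC rests on the uninduced line. Of the 9958 genes measured in both comparisons, 349 passed 2-fold in opposite directions. Ctgf was higher with Oct4 in MEF (2.80 against DR) and lower with Oct4 in KSM cells (-1.10 against KSM with DR), a gap of 3.90 on the log2 scale. Against WT MEF the value in MEF was -0.12, and with a pseudocount of 5 the value in KSM cells was -0.66, within 2-fold, so the opposite calls rest on DR as the control and on the pseudocount. The second value rests on 11 counts with Oct4 and 21 with DR, and 1.58% of the 9935 genes measured in both comparisons passed 2-fold in opposite directions. In KSM cells with Oct4, Ctgf lay below 5 CPM and so could not be counted as higher.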

How the results depend on the processing

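No call of a pathway gene changed direction under any of the 9 alternatives run for every comparison or under matching by symbol alone. Calls against WT MEF depended most on scaling: with total counts, 2 genes were past 2-fold for DR, 2 for c-JunDN and 3 for Jdp2, because this scaling moves the median of all genes from between -0.11 and -0.08 to between 0.26 and 0.39 in the 5 comparisons with WT MEF. In ESC the median of all genes for induced over uninduced cells was -0.07 with TMM and 0.13 with total counts, and for WT MEF over WT ESC -0.19 and -0.47. On the authors' TPM scale 1 gene was left for Oct4 against WT MEF and 1 appeared for KSM with c-JunDN. For KSM with c-JunDN it was also 1 with a filter of 1 CPM and with none, through Ankrd1 (1 count with DR). A pseudocount of 5 left 0 genes for Jdp2 against DR in MEF, 1 for KSM with Oct4 and 1 for KSM with Jdp2. A 1.5-fold threshold gave 2 genes for Oct4 against DR, 8 for c-JunDN and 6 for Oct4 against WT MEF. With names matched by symbol alone, Ctgf and Cyr61 drop out of the Oct4 comparison with DR, and 0 of 8 genes passed. The cause of the other moves was not tested. No paired analysis was possible because each group is 1 library, and leaving a library out leaves no comparison. Peaks near the pathway genes were not run. Depth limits Ankrd1 in ESC and KSM cells and Ctgf and Cyr61 in KSM cells, where counts were between 0 and 88.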
